A study of Arabidopsis thaliana with 72 samples.

Results

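The BT family of Arabidopsis thaliana comprises 5 genes, BT1 (AT5G63160), BT2 (AT3G48360), BT3 (AT1G05690), BT4 (AT5G67480) and BT5 (AT4G37610), among the 33602 genes of the deposited root expression table. The members were taken by gene identifier. They were chosen by a measured value: BT2 had already been seen to be far higher in phr1phl1 than in wild-type roots without phosphate, so that contrast, and the same contrast in the 2 higher-order mutants that carry phr1 and phl1, is given as a description with no test. Roots of 8-day-old seedlings were sequenced from the wild type Col-0 (Col below) and 11 mutants, each raised on phosphate-sufficient (+Pi) or phosphate-deficient (-Pi) medium, with 3 biological replicates in each of 24 groups and 72 libraries in all. The mutants were the single mutants phr1, phl1, phl2, phl3 and phl4, the doubles phr1phl1, phr1phl2, phr1phl3 and phr1phl4, the triple phr1phl1phl2 and the quadruple phr1phl1phl2phl3. All plates held 1% sucrose and were set with agar or agarose, without a record of which library came from which; alleles, the time of day of harvest and any pooling of seedlings are not given in the sources used here.

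BT proteins carry a BTB domain, a TAZ zinc finger and a calmodulin-binding region. The BTB domain lets such proteins bind the cullin CUL3 as scaffolds of ubiquitin ligases, and BT2 also binds the bromodomain proteins GTE9 and GTE11 and acts downstream of the telomerase activator TAC1. In seedlings the BT2 transcript is known to be lowered by sugars, raised by nitrate and under the circadian clock, and BT1 and BT2 restrain nitrate uptake when nitrate is low. PHR1 and its PHL relatives are MYB-type transcription factors that switch on phosphate starvation genes.

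The PHR1 transcript stood at 1.62 to 5.86 RPKM (reads scaled to gene length and library size) in the 42 libraries with phr1 in their label and at 15.8 to 27.7 RPKM in the 30 others. The ranges did not overlap, as the labels require. PHL1 and PHL2 were likewise lower, without overlap, in the libraries that name them. PHL4 was at 2.73 to 5.02 RPKM in the 12 libraries that name it and at 3.21 to 18.7 in the others, with overlap. PHL3 was low only in the phr1phl3 libraries: it averaged 15.2 RPKM in the -Pi libraries labelled phl3 and 12.4 in the -Pi libraries labelled phr1phl1phl2phl3, against 5.45 in Col -Pi, and a transcript read outside a mutated stretch does not check the label. Estimated depth was about 14480000 to 40200000 reads per library. The libraries fell into 3 classes of 35, 20 and 17 by how a gene's value moved with its length and base composition; all 17 of the last class were +Pi libraries, and 17 of the 20 in the second were -Pi. Root markers were above 0 in every library, 12 of 12. Shoot and green tissue markers, 17 genes of photosynthesis and leaves, varied strongly: their summed level was 579 ± 208 RPKM (SD, n = 3) in Col +Pi and 28.8 ± 0.84 in Col -Pi. In bulk roots, fewer cells of a type and less RNA per cell cannot be told apart.

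The windows of 250 bases upstream of 3 of the genes are shown because BT1 and BT2 varied together across the 24 groups, whereas BT4 did not follow them and in Col changed in the opposite direction. They are from the RefSeq assembly TAIR10.1, the deposited values being on TAIR10, and run 5′ to 3′ on the coding strand up to the base before the annotated gene start. BT1 lies at chr5:25335571-25335820 (minus strand), BT2 at chr3:17910739-17910988 (minus) and BT4 at chr5:26933353-26933602 (minus). Capitals mark matches to the motifs that were searched.
BT1: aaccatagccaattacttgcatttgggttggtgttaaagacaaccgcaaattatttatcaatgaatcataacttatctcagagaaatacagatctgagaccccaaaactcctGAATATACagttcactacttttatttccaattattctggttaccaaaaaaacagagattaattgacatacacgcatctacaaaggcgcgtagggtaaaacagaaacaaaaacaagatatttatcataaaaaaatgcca
BT2: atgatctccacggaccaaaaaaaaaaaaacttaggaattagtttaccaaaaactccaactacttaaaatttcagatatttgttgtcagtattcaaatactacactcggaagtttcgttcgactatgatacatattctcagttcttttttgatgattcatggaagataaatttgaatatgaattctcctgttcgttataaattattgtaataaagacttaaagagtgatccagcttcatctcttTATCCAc
BT4: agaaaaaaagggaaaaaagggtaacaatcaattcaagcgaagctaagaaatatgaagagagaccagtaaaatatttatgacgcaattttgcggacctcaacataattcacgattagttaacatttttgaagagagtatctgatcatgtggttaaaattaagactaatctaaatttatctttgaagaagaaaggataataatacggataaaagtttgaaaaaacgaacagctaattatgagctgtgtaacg

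Searched on both strands were GNATATNC, the letters PHR1 binds, CACGTG (the G-box), AAAATATCT (the evening element of clock-controlled genes) and TATCCA, a motif known from sugar-repressed genes. No match in the BT promoters overlapped one of another motif, and the 4 motifs occur in 5.46%, 6.49%, 2.36% and 13.6% of 27443 promoters of that length. BT1 held 1 match to the PHR1 motif, from position -138 to -131 relative to its start. BT2 held 1 TATCCA, from -7 to -2, and BT5 held 3, all on the opposite strand. BT3 and BT4 held none of the 4 in this window.

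BT1 (chr5:25333172-25335570, minus strand, 3 exons), BT2 (chr3:17907767-17910738, minus, 3 exons) and BT3 (chr1:1706736-1709360, plus, 5 exons) overlapped no annotated gene. BT4 (chr5:26930539-26933352, minus, 4 exons) and BT5 (chr4:17670481-17672353, minus, 5 exons) shared 18 and 151 bases with genes on the other strand, and as no strand setting is stated, reads there cannot be told apart. Coding sequences of BT1 and BT2 were 76.8% identical over 1056 aligned bases, with a longest identical run of 20 bases, and those of BT4 and BT5 were 68.0% identical. How the authors assigned reads that fit several genes is not given in the sources used here. The least read member was BT3, at about 8 to 149 reads per library, and BT2 had about 94 to 19571.

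Without phosphate, BT1, BT2 and BT5 fell in wild-type roots and BT4 rose. BT2 stood at 60.6, 43.4 and 56.3 RPKM in the 3 Col +Pi libraries and at 2.92, 3.65 and 2.83 in the 3 Col -Pi libraries. BT1 stood at 43.5, 26.4 and 28.2 RPKM with phosphate and at 2.51, 2.13 and 2.21 without it. The groups were far apart for both genes. BT2 fell by 3.71 on the log2(RPKM + 1) scale (SE 0.13), 17.0-fold by the means, and BT1 fell by 3.33 (SE 0.15, adjusted p = 6.16e-26). The BT2 level in Col -Pi was 1 side of the contrast that picked the family. Comparisons of BT2 that use it are therefore not independent of that choice, and no p is given for them. A change was called where limma's adjusted p was below 0.05 and the log2 change at least 1; in this comparison 14.4% of the 21206 genes tested were called, 8.20% lower and 6.24% higher. BT5 stood at 32.9, 43.6 and 41.9 RPKM with phosphate and at 12.4, 12.2 and 11.5 without it. It fell by 1.63 (SE 0.16, adjusted p = 1.02e-12). BT4 went the other way, from 5.26, 3.79 and 4.78 RPKM to 10.6, 11.8 and 11.4, a rise of 1.13 (SE 0.14, adjusted p = 2.41e-09). BT3 was under 1 RPKM in all 6 libraries and its change of -0.38 was not called. Summed over the family, Col roots held 131 ± 12.7 RPKM with phosphate and 29.0 ± 0.98 without it (SD, n = 3). BT2 made up 40.6% of that sum with phosphate and 10.8% without it, whereas BT4 made up 3.51% and 38.7%.

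**Figure D1:**
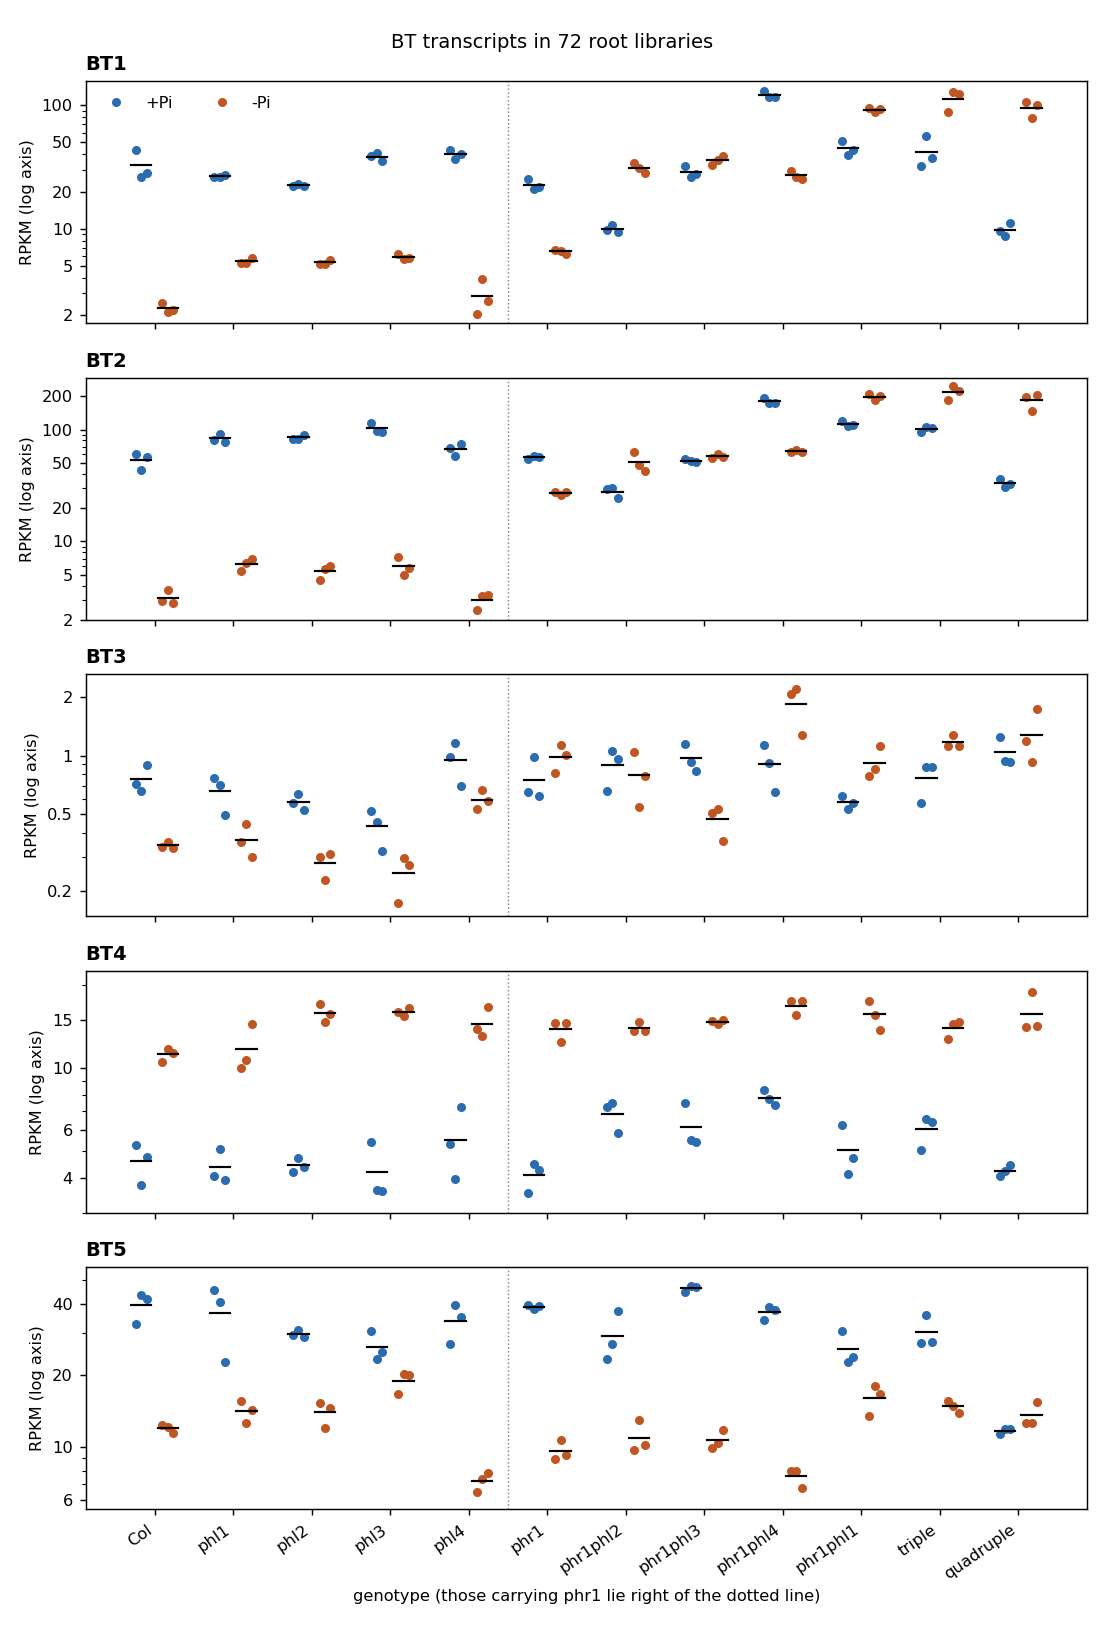
Levels of the 5 BT genes in RPKM on a log axis, by genotype, with 1 point per library, a bar at the mean of the 3 libraries of a group, and +Pi and -Pi in separate colours. BT1 and BT2 lie at 2.02 to 7.31 RPKM in every -Pi group without phr1 and reach 243 in mutants with it, while BT4 is higher in -Pi than in +Pi libraries throughout.

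BT1 and BT2 were at their lowest in the -Pi roots of the 5 genotypes without phr1 in their label. In the 15 -Pi libraries without phr1, BT2 had a lowest value of 2.44, a median of 4.97 and a highest value of 7.31 RPKM. In the 21 -Pi libraries with phr1 it had 26.1, 63.5 and 243 RPKM. These ranges did not overlap. BT1 had a lowest value of 2.02, a median of 5.19 and a highest of 6.19 RPKM in the 15 libraries and of 6.26, 36.3 and 129 in the 21, and these ranges only just failed to meet. With phosphate the ranges overlapped for both genes, with BT2 at 43.4 to 115 RPKM without phr1 and 24.3 to 190 with it. BT3, BT4 and BT5 overlapped between the same sets of libraries on both media. No test was run on these pooled sets, since the BT2 level in part of them picked the family.

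BT2 was 54.6, 58.3 and 56.3 RPKM in phr1 +Pi and 27.7, 26.1 and 27.9 in phr1 -Pi. The -Pi level lay between those of Col +Pi and Col -Pi, apart from both. BT2 fell in phr1 by 1.02 (SE 0.13, adjusted p = 1.97e-09; 11.3% of genes called, 4.30% lower), close to the threshold of 1: without phr1 -Pi replicate 2 the value was -0.993 and the call was lost, as it was, at -0.9995, without phr1 +Pi replicate 2. BT1 was 25.1, 21.1 and 21.9 RPKM in phr1 +Pi and 6.77, 6.63 and 6.26 in phr1 -Pi, and fell by 1.65 (adjusted p = 9.33e-14). Both genes thus still fell in phr1, but by less than in Col. The response was smaller by 2.69 for BT2 (SE 0.18) and by 1.68 for BT1 (SE 0.21, adjusted p = 1.38e-08). In this direction 4.31% of genes were called with a difference. Compared with Col on -Pi medium, BT2 was higher in phr1 by 2.78, 8.68-fold by the means, where 3.10% of genes were called and 2.32% were higher. BT1 was higher by 1.20 (adjusted p = 5.46e-09). The 11 comparisons of a mutant with Col on a medium share the same 3 Col libraries, and so do the differences in response.

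The phr1phl1 double mutant turned the direction round. BT2 stood at 120, 108 and 109 RPKM in phr1phl1 +Pi and at 208, 184 and 197 in phr1phl1 -Pi, and BT1 at 51.8, 39.7 and 43.9 and at 95.2, 89.0 and 93.0. Every -Pi library of this genotype lay above every +Pi library for both genes, and above every Col library on either medium. The -Pi level of BT2 was 62.6-fold that of Col -Pi by the means (log2 difference 5.58), and that of BT1 was 40.5-fold (4.83). In that contrast 11.5% of genes were called, and nothing is read from the members' place in it. The rise of BT1 within phr1phl1 was 1.03 (SE 0.15), where 13.9% of genes were called and 10.8% were higher. This BT1 value came to 0.76 after rescaling the libraries and to 0.84 with library class as a term. Without phr1phl1 +Pi replicate 2 it was 0.94, and each of these was short of the threshold. BT2 changed by 0.80, short of the threshold. The -Pi level of BT2 in phr1phl1 was among the values that picked the family. Comparisons that use those libraries are thus not independent of that choice. No p is given for the changes within phr1phl1 or for its comparisons with phr1 or phl1 on -Pi medium.

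Adding phl1 to phr1 went with higher BT1 and BT2 levels without phosphate. As a description, BT2 was 2.80 higher in phr1phl1 than in phr1 on -Pi medium and BT1 3.63 higher, where 8.03% of genes were called, 3.68% higher. Adding phr1 to phl1 also went with higher levels, by 4.77 for BT2 and 3.86 for BT1, where 10.1% were called, 5.93% higher. The single phl1 mutant, in contrast, had BT2 at 5.497, 6.36 and 6.96 RPKM without phosphate. As a description, this was 0.81 above Col -Pi, short of the threshold, where 0.250% of genes were called. BT1 in phl1 was 0.97 above Col -Pi, not called, but it was called at 1.22 with a pseudocount of 0.1 and at 1.02 without Col -Pi replicate 1. The departure from additive effects of phr1 and phl1 on -Pi medium was 1.99 for BT2 and 2.66 for BT1, given without a test. On +Pi medium the same departure was called for BT1, at 1.21 (adjusted p = 7.76e-05; 3.33% of genes called in this direction), but it was 0.99 without Col +Pi replicate 1, and the adjusted p was 0.0585 in a fit of these groups alone.

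In the triple mutant BT2 stood at 95.0, 106 and 103 RPKM with phosphate and at 185, 243 and 223 without it, and BT1 at 32.2, 56.7 and 37.2 and at 88.7, 129 and 123. BT2 rose by 1.08 (SE 0.13) and BT1 by 1.43, where 14.4% of genes were called and 11.2% were higher. No p is given, since the -Pi levels of this mutant are set aside with those that picked the family. The BT2 value came to 0.83 after rescaling and to 0.996 without -Pi replicate 2 of the triple mutant, each short of the threshold. Without phosphate, no BT gene differed at the threshold between the triple mutant and phr1phl1, or between the libraries labelled phr1phl1phl2phl3 and the triple. In these steps 0.156% and 0.637% of all genes were called. Against Col -Pi the triple and quadruple were higher by 5.71 and 5.46 for BT2 and by 5.11 and 4.87 for BT1, as descriptions, in contrasts where 12.4% and 17.1% of genes were called.

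Among the 12 genotypes, BT1 and BT2 rose most without phosphate in the libraries labelled phr1phl1phl2phl3, where the +Pi level was low. BT2 stood there at 36.1, 30.5 and 32.4 RPKM with phosphate and at 196, 147 and 205 without it, and BT1 at 9.66, 8.78 and 11.1 and at 107, 79.3 and 101. BT2 rose by 2.42 (SE 0.13) and BT1 by 3.15 (SE 0.15), where 21.0% of genes were called and 16.7% rose. As for the triple mutant, no p is given for these changes. With phosphate these libraries were below the triple mutant by 1.59 for BT2, 1.95 for BT1 and 1.29 for BT5, called in each case, where 2.47% of genes were called and 1.12% were lower. Against Col +Pi, BT1 was lower by 1.61 and BT5 by 1.65, with 7.59% of genes called and 7.09% lower. BT5 in these libraries was 11.4, 11.9 and 11.99 RPKM with phosphate and 12.6, 12.7 and 15.5 without it, so that its +Pi level was already within the range of -Pi roots.

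The 3 doubles with a different PHL gene did not resemble each other on +Pi medium. In phr1phl4, BT2 stood at 190, 171 and 174 RPKM with phosphate and at 63.5, 65.0 and 62.7 without it, and BT1 at 131, 116 and 118 and at 29.5, 26.5 and 25.2. The +Pi levels were the highest among the 12 +Pi groups for both genes, 1.73 above Col for BT2 (adjusted p = 2.35e-16) and 1.90 for BT1 (adjusted p = 2.20e-15), where 5.60% of genes were called and 3.01% higher. Both genes then fell without phosphate, BT2 by 1.47 and BT1 by 2.13, with 9.26% of genes called in this response. In phr1phl2, BT2 stood at 29.4, 29.9 and 24.3 RPKM with phosphate and at 62.8, 47.8 and 43.0 without it, and BT1 at 9.79, 10.8 and 9.45 and at 34.1, 31.2 and 28.5. Here the +Pi level was low: BT1 was 1.58 below Col +Pi (adjusted p = 5.34e-12; 5.95% of genes called, 5.29% lower), and it rose by 1.55 without phosphate (22.0% of genes called). BT2 was 0.91 below Col +Pi and 0.84 higher without phosphate, neither called. In phr1phl3, BT2 stood at 54.2, 52.5 and 51.6 RPKM with phosphate and at 55.5, 60.5 and 56.8 without it, and BT1 at 32.3, 26.2 and 27.7 and at 33.0, 36.3 and 38.8. Neither gene changed at the threshold between media in phr1phl3, with differences of 0.12 for BT2 (SE 0.13) and 0.32 for BT1 (SE 0.15), where 24.4% of genes were called. As a description, the response of BT2 differed from that of Col by 4.55 in phr1phl2, 3.83 in phr1phl3 and 2.24 in phr1phl4. These values use the Col -Pi level that helped to pick the family. In these comparisons 23.0%, 22.5% and 9.51% of genes were called in this direction.

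Without phosphate, these doubles were nearer to each other, and all 3 lay above phr1. Relative to phr1 -Pi, BT1 was higher by 2.09 in phr1phl2, 2.29 in phr1phl3 and 1.89 in phr1phl4, all called, where 6.86%, 13.4% and 12.2% of genes were called and 3.98%, 9.62% and 7.41% were higher. BT2 was called in phr1phl3 (1.05, but 0.97 after rescaling) and phr1phl4 (1.20), and was 0.87 higher in phr1phl2, not called. Against Col -Pi, BT2 was higher by 3.64, 3.83 and 3.97 and BT1 by 3.30, 3.49 and 3.10 in phr1phl2, phr1phl3 and phr1phl4, where 14.4%, 20.3% and 18.9% of genes were called and 10.5%, 15.2% and 12.9% were higher. On +Pi medium, BT1 in phr1phl2 was lower than in phr1 by 1.11, a call lost at -0.98 with the class term, where 4.94% of genes were called and 4.43% were lower. BT1 and BT2 in phr1phl4 were higher than in phr1 by 2.37 and 1.64, where 10.6% of genes were called and 6.29% were higher. The other call on +Pi medium was BT2 in phr1phl1, 1.07 above Col (8.53% of genes called, 1.35% higher) and 0.93 without Col +Pi replicate 2. BT2 was nearly as far above Col in the +Pi libraries labelled phl3 (0.93, 1.66% of genes called higher) and in the triple mutant (0.92, 0.571%), neither called. Both were called after rescaling, at 1.09 and 1.002, and without Col +Pi replicate 1, at 1.03 and 1.02.

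**Figure D2:**
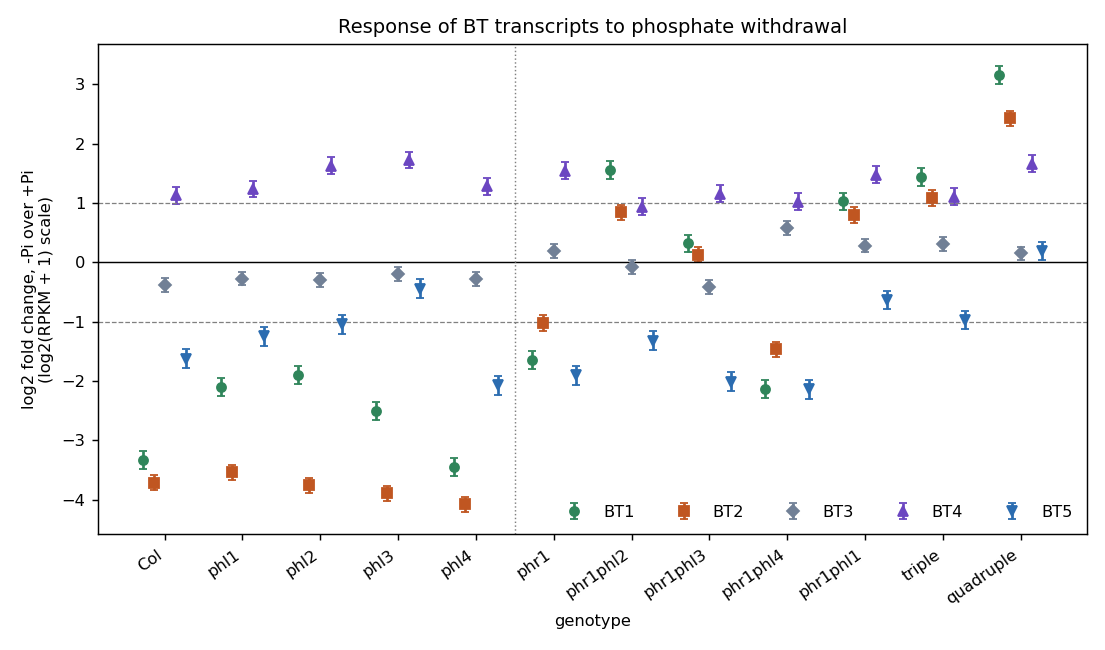
Log2 change of each BT gene from +Pi to -Pi medium in the 12 genotypes, from the limma fit on log2(RPKM + 1), with bars of 1 standard error on each side and dashed lines at the threshold of 1 in each direction. BT1 and BT2 run from -3.45 and -4.08 in phl4 to 3.15 and 2.42 in the libraries labelled phr1phl1phl2phl3, while BT4 stays between 0.94 and 1.72.

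The single phl mutants kept the fall. The BT2 change was -3.53 in phl1, -3.75 in phl2, -3.89 in the libraries labelled phl3 and -4.08 in phl4, all called, where 12.7%, 31.1%, 30.8% and 11.4% of genes were called and 5.24%, 9.46%, 8.83% and 5.38% fell. That of BT1 was -2.099, -1.90, -2.51 and -3.45 in the same order, also called. The BT2 responses of these mutants did not differ from that of Col at the threshold, with differences from -0.37 to 0.18 (SE 0.18). BT1 responded less than in Col in phl1, by 1.23, and in phl2, by 1.43, both called, where 6.81% and 23.6% of genes were called in this direction; the phl1 value was 0.98 in the libraries of class 1 alone and had an adjusted p of 0.113 in a fit of these groups alone. Against Col -Pi, BT1 was higher in the libraries labelled phl3 by 1.07 (13.8% of genes called, 10.2% higher). It was higher by 0.95 in phl2 (15.1% of genes called) and 0.20 in phl4 (8.66%), neither called, the phl2 value being called at 1.19 with a pseudocount of 0.1.

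BT4 followed the medium in every genotype. Over the 36 +Pi libraries it had a lowest value of 3.53, a median of 4.92 and a highest value of 8.36 RPKM, and over the 36 -Pi libraries 10.03, 14.6 and 18.8 RPKM. The ranges did not overlap. BT4 rose in 11 of 12 genotypes, by 1.02 to 1.72, and by 0.94 without a call in phr1phl2. Genes called higher made up 6.24% in Col, 7.50%, 21.6%, 21.9% and 5.98% in phl1, phl2, phl3 and phl4, 7.0% in phr1, and 17.5%, 16.7% and 6.02% in phr1phl2, phr1phl3 and phr1phl4. The calls nearest the threshold depended on the processing: phr1phl4 (1.02) was 0.98 after rescaling and 0.85 with the class term, phr1phl3 (1.15) was 0.90 with the class term, and phr1phl1phl2 (1.11) was 0.88 after rescaling. With limma's test, BT4 was called against Col in 0 of 8 tested mutants on -Pi medium and 0 of 11 on +Pi medium, with an unadjusted p below 0.05 in 6 and 4 of them. Over the 11 mutants, 0.250% to 20.3% of all genes were called on -Pi and 1.65% to 11.3% on +Pi medium, so most genes were not called either. The response of BT4 was called different from that of Col in 0 of 8 tested, with an unadjusted p below 0.05 in 3. Over the 11 mutants, 5.67% to 35.1% of all genes were called in this way.

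BT5 fell in 8 of 12 genotypes, by 1.04 to 2.14. In its 3 doubles with a call, phr1phl2, phr1phl3 and phr1phl4, 4.55%, 7.66% and 3.24% of genes fell. The 4 without a call were the libraries labelled phl3 (-0.45), phr1phl1 (-0.64), phr1phl1phl2 (-0.97) and phr1phl1phl2phl3 (0.19). With library class as a term the first 3 of these came to -1.001, -1.26 and -1.41 and were called, so their lack of a call rests on the processing. The call in phl2 (-1.04) was lost at -0.95 without phl2 -Pi replicate 2. BT5 stood at 30.6, 23.4 and 25.0 RPKM in the +Pi libraries labelled phl3 and at 16.7, 20.3 and 20.02 in the -Pi ones. The smaller response there than in Col, by 1.18 (adjusted p = 3.70e-05; 23.3% of genes called in this direction), came to 0.98 after rescaling and 0.65 with the class term. All -Pi libraries labelled phl3 were of class 2 and all +Pi libraries of class 3. The same split held in phl2. In phr1phl1, phr1phl3, the triple and the quadruple the media also shared no class, so medium and class cannot be told apart there.

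BT3, which acts with BT2 in gametophyte development, was the lowest member throughout, at 0.175 to 2.19 RPKM. With limma's test its change between media was called in 0 of 12 genotypes, with an unadjusted p below 0.05 in 8, where 9.26% to 31.1% of all genes were called. Its highest group was phr1phl4 -Pi, at 2.07, 2.19 and 1.28 RPKM, which was 1.07 above Col -Pi (adjusted p = 3.66e-11; 12.9% of genes called higher) and 0.98 without phr1phl4 -Pi replicate 2. That group also had the highest summed shoot markers of the 24, 1902 ± 172 RPKM (SD, n = 3) against 28.8 ± 0.84 in Col -Pi. The summed shoot level had an r with BT3 of 0.885 over the 12 -Pi groups and 0.611 over the 12 +Pi groups, and its part in the BT3 result was not tested. At such levels a pseudocount of 1 holds the log2 change down: with 0.1 in its place the difference of phr1 from Col on -Pi medium went from 0.56 to 1.27 and was called.

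Across the 24 group means of log2(RPKM + 1), BT1 and BT2 had a Pearson r of 0.952, with 0.974 over the 12 -Pi groups and 0.900 over the 12 +Pi groups. BT4 and BT5 had an r of -0.765, but of -0.025 over the -Pi and 0.301 over the +Pi groups, and BT2 and BT3 had an r of 0.579, with 0.752 and -0.486. BT4 had an r of -0.154 with BT1 and -0.300 with BT2, positive within each medium. These values are descriptions, and the groups share genotypes, media and library classes. The ratio of BT2 to BT1 was not fixed: it ran from 1.39 to 3.99 over the 36 +Pi libraries and from 0.825 to 4.46 over the 36 -Pi libraries, and in phr1 -Pi it was 4.16 ± 0.27 (SD, n = 3) against 1.39 in Col -Pi.

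**Figure D3:**
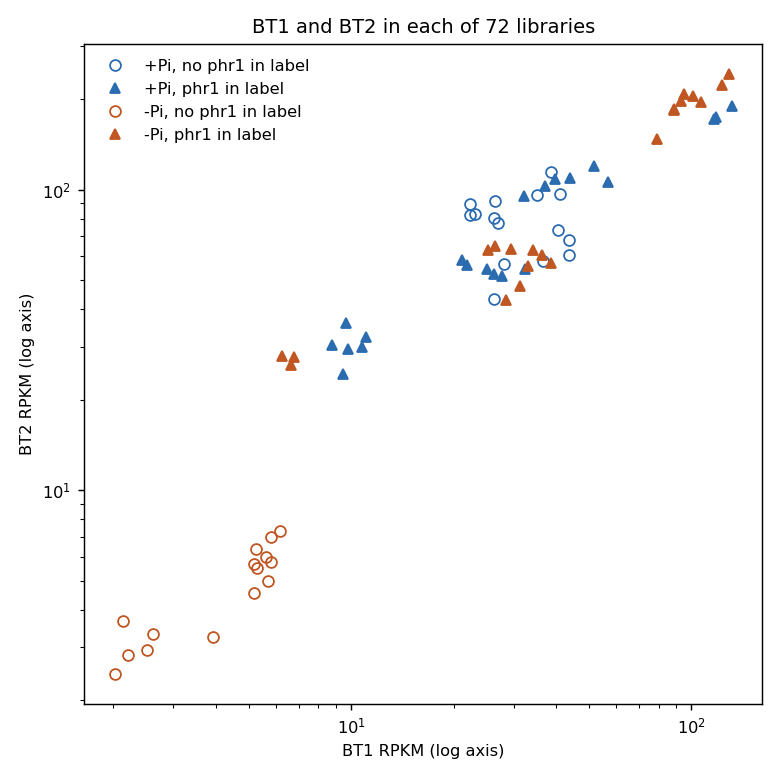
BT2 against BT1 in RPKM, both axes logarithmic, with 1 point per library, colours for medium and filled triangles for phr1 in the label. The 15 -Pi libraries without phr1 form the low corner, up to 6.19 RPKM of BT1 and 7.31 of BT2, and the phr1phl1, triple and quadruple -Pi libraries the high one with phr1phl4 +Pi.

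The tested genes whose pattern over the 24 groups was most like that of BT2 were AT4G37550 (r = 0.967), DRM1, a dormancy-associated gene (0.964), AT5G21940 (0.960), AT4G25170 (0.953) and BT1 itself (0.952). Closest to BT1 were AT3G46690 (0.960), BZO2H3, the bZIP63 transcription factor (0.959), and AT1G49200 (0.956). For BT3 they were AT5G43740 (0.885), RPP13 (0.860) and HB30 (0.858), for BT4 AT1G28600 (0.976), ALIS5 (0.975) and AT2G29670 (0.974), and for BT5 AT1G24440 (0.926), MEE15 (0.909) and MYB88 (0.904). With Spearman's rho, 2 of the 5 genes most like BT2 were the same, and with the 12 -Pi groups alone, 1. BT1 ranked 5 in likeness to BT2 by Pearson's r, 28 by Spearman's rho and 37 over the -Pi groups.

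Genes known to be lowered by sugar, the class to which BT2 belongs, followed it in some comparisons. Of 20 listed genes 18 were tested, and in Col 12 fell and 1 rose without phosphate, where 8.20% and 6.24% of all genes did so, with a median change of -1.31 against 0.02 for all genes. SEN1, a dark-induced gene, fell by 3.94, DRMH1, a relative of DRM1, by 3.21 and TPS11, a trehalose phosphate synthase family member, by 2.51, while ASN1, an asparagine synthetase, rose by 4.26. Between phr1phl1 and phr1 on -Pi medium 11 were higher and 0 lower (3.68% and 4.35% of all genes), with a median of 1.12 against 0.04, SEN1 (2.26), DRMH1 (2.03), BCAT2, an enzyme of branched-chain amino acids (1.69), and DRM1 (1.54) leading. Between phr1phl4 and Col on +Pi medium 10 were higher and 0 lower (3.01% and 2.59% of all genes), and between the quadruple and the triple mutant on +Pi medium 0 were higher and 8 lower (1.35% and 1.12% of all genes), as BT1 and BT2 were. The likeness had limits: in phr1phl1, BT1 rose without phosphate while 6 listed genes fell and 1 rose (3.15% and 10.8% of all genes), and in the triple mutant 7 fell and 1 rose (3.28% and 11.2%). In the quadruple mutant 4 rose and 0 fell (16.7% and 4.35%), with a median of 0.24 against 0.25 for all genes. Over the 24 groups the listed genes had a median r with BT2 of 0.778, against 0.008 for all genes, and 8 of 18 were above 0.8. ASN1 (-0.31), GDH2 (-0.12), BGLU30 (0.01) and PRODH1 (0.02) were the least alike. DRM1 itself averaged 143 RPKM in Col +Pi, 54.4 in Col -Pi, 161 in phr1 -Pi, 470 in phr1phl1 -Pi and 582 in phr1phl4 +Pi.

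**Figure D4:**
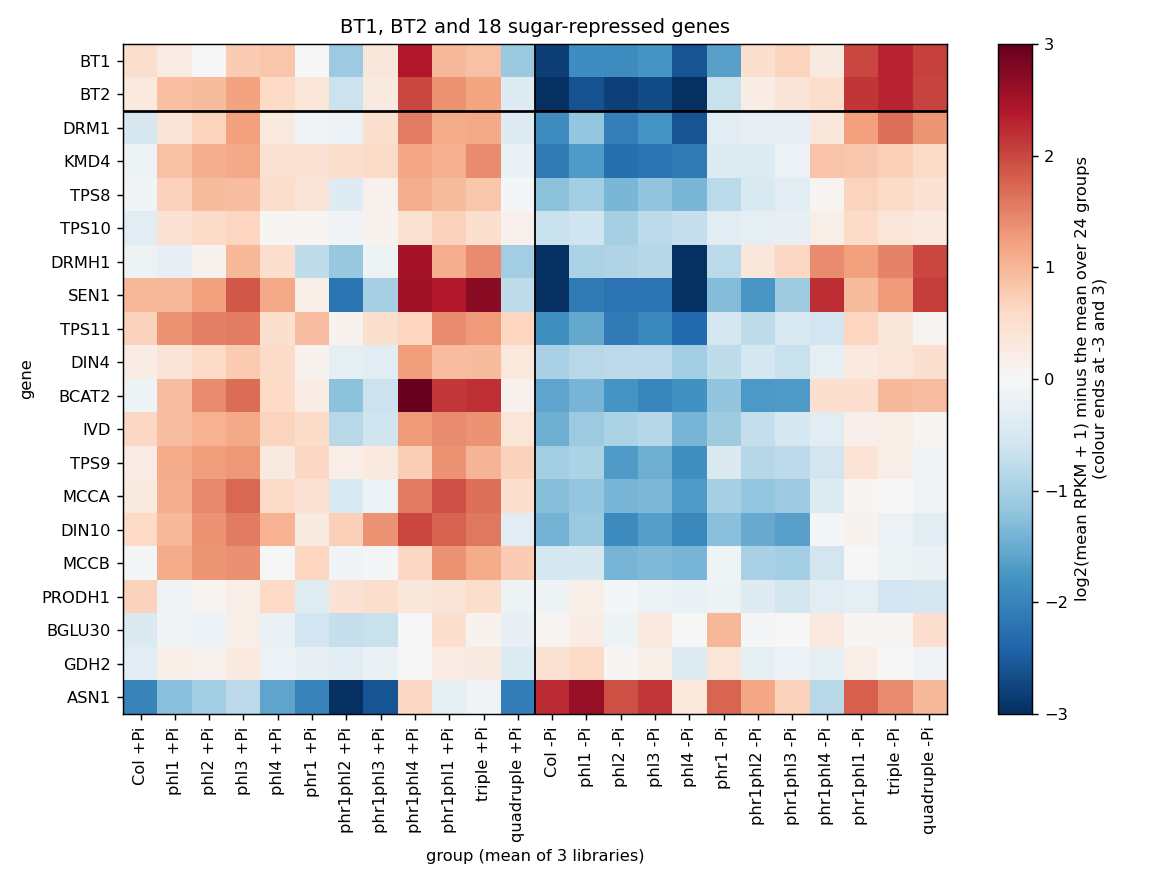
Level of BT1, BT2 and the 18 tested sugar-repressed genes in the 24 groups (means of 3 libraries), as log2(mean RPKM + 1) minus the gene's mean over the groups, red above and blue below it, with genes ordered by their r with BT2. BT1, BT2 and genes such as DRM1 are bluest in the -Pi groups without phr1, and ASN1 is blue in most +Pi groups and red in most -Pi groups.

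Of 8 genes for CUL3, its partners and the bromodomain readers, 1 was called in the Col response, a share near the 14.4% of all genes: GTE11 fell by 1.01. With library class as a term, 0 of the 8 were called lower and 1 was called higher, so the GTE11 call was lost. GTE11 averaged 24.8 RPKM in Col +Pi, 11.9 in Col -Pi, 17.6 in phr1 -Pi and 31.4 in phr1phl1 -Pi, and had an r with BT2 of 0.933. It was the only 1 of the 8 above 0.8: the median r was 0.285, and GTE9 had 0.326. TAC1 ran the other way, at 5.70 RPKM in Col -Pi, 3.07 in phr1 -Pi and 0.822 in phr1phl1 -Pi, with an r of -0.677, and it was 1.16 lower in phr1phl1 than in phr1 without phosphate. Of 16 other BTB adaptors of CUL3 that were tested, 1 rose and 1 fell in Col, where 6.24% and 8.20% of all genes did so. NPR3, a salicylic acid receptor, rose by 1.29 and BOP2, a leaf patterning regulator, fell by 1.74. Of 19 tested nitrate response genes 3 rose and 1 fell in Col, where 6.24% and 8.20% of all genes did so: the nitrate reductases NIA2 (1.77) and NIA1 (1.48) and HHO2 (1.103) rose, and the repressor LBD37 fell by 1.101. Between phr1phl4 and Col on +Pi medium, 1 of the 19 was higher and 1 lower, where 3.01% and 2.59% of all genes were. NRT2.1, a nitrate transporter, was higher by 2.20 and NIA1 lower by 1.53.

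Clock genes and shoot markers were also called in several of these comparisons. Across the 24 groups the clock genes had a median r with BT2 of 0.049, against 0.008 for all genes and 0.678 for the shoot markers. Single clock genes went both ways, from -0.527 (GI) to 0.803 (ELF3), which a median does not show. Over the -Pi groups they ran from -0.791 (GI) to 0.952 (ELF3), with TOC1 at 0.934 and LHY at -0.686. Of 12 clock genes 3 rose and 5 fell in the Col response (6.24% and 8.20% of all genes), among them LHY (-3.87) and CCA1 (-2.90). In phr1 against Col on -Pi medium, where BT2 was 2.78 higher, 0 of 12 were called by limma, 4 having an adjusted p below 0.05 with changes short of the threshold. Within phr1, 5 rose and 4 fell without phosphate (7.0% and 4.30% of all genes). Within phr1phl1 4 rose and 7 fell (10.8% and 3.15%), as in the triple mutant (11.2% and 3.28%). Within the quadruple 4 rose and 6 fell (16.7% and 4.35%). Between phr1phl1 and Col on -Pi medium 3 were higher and 5 lower (7.0% and 4.51%). Between phr1phl1 and phr1 on -Pi medium 2 were higher and 4 lower (3.68% and 4.35% of all genes), and between phr1phl4 and Col on +Pi medium 5 were higher and 3 lower (3.01% and 2.59%), with LHY at -4.09 and CCA1 at -3.51. Harvest time is not in the labels, and its part in the BT results was not tested. The summed shoot markers were 58.7 RPKM in phr1 -Pi, 318 in phr1phl1 -Pi, 623 in the quadruple -Pi and 1902 in phr1phl4 -Pi, where BT2 averaged 27.2, 196, 183 and 63.8 RPKM. Between phr1phl1 and Col on -Pi medium 15 of 17 shoot markers were higher (7.0% of all genes), and in the Col response 16 fell (8.20%). In the group with the fewest, phl2 -Pi, 13 of 17 were above 0; RBCS2B was at 0 in 10 of 36 -Pi libraries, RBCS3B in 9, CAB2 in 6 and CAB3 in 2. Over the groups the summed shoot level had an r with BT2 of 0.767 on -Pi medium and -0.008 on +Pi medium, and with BT1 of 0.748 and 0.1999. The part of shoot RNA in the BT results was not tested.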

How the data were processed

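The authors deposited 1 table of RPKM values (reads scaled to gene length and library size) for 33602 genes in 72 libraries. Per the labels' protocols, mRNA was drawn from total root RNA with oligo(dT) beads and made into fragmented cDNA libraries; the build was TAIR10 and the tools TopHat and edgeR, per the submitters' processing notes, which name no versions. As RPKM are not counts, log2(RPKM + 1) was analysed with limma 3.58.1 in R 4.3.3 (24 group means in 1 fit, empirical Bayes with trend and robust settings), for the 21206 genes that reached 1 RPKM in 3 or more libraries, and p-values were adjusted by Benjamini-Hochberg over all of them. All 5 BT genes passed the filter, BT3 only through part of its groups. A call needed an adjusted p below 0.05 and a log2 change of at least 1. The fit was tested on simulated data.

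Depth was estimated from the value of 1 read in 9618 genes with 1 exon; the median library had 63.3% of values near a whole read, to a tolerance of 0.05 (range 51.3% to 70.2%), too few to recover counts, so read numbers are approximate and no count test was run. Library classes came from k-means on slopes of 9179 genes against length, GC and A content and were chosen after the data had been seen. Groups are those of the labels. The p-values rest on the spread between libraries within groups, estimated for each gene over all 24 groups together and not for the compared groups alone. The members, lists and tests were chosen with earlier results of these data known. Named are the BT genes, the family checks, the 5 genes most like BT2, the 3 most like each other member, and in each list up to 4 members with the largest change in the comparison described or those needed for a count; the PHL genes were added to the label check after their values were seen. A planned comparison of proteins was replaced by one of coding sequences from RefSeq TAIR10.1, aligned with Biopython 1.88. Of the identifiers, 32835 matched that annotation. Alternatives were another pseudocount (0.1), no filter, rescaling by median ratios, a replicate block, library class as a term, class 1 alone, the compared groups alone and leaving out each library. The list genes BOP1, NRT2.4, BZIP1 and BZIP53 did not pass the filter.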

Additional observations from a re-analysis of the deposited data

Results flagged for a closer look

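Each result below is a response to phosphate removal that differs from that of Col, as a difference of log2 changes, with positive values where the mutant fell less or rose more; all use the same 6 Col libraries. As descriptions, BT2 differed in phr1 by 2.69, in phr1phl2 by 4.55, in phr1phl3 by 3.83 and in phr1phl4 by 2.24. These BT2 values use the Col -Pi level that helped to pick the family and are not independent of that choice. By limma's test of the difference, BT1 differed in phr1 by 1.68, in phr1phl2 by 4.88 and in phr1phl3 by 3.64. By the same test it differed in phr1phl4 by 1.20, in phl1 by 1.23 and in phl2 by 1.43. The phr1phl4 value for BT1 came to 0.98 without Col +Pi replicate 1, and the phl1 value to 0.98 in class 1 libraries alone and to an adjusted p of 0.113 in a limma fit of these groups alone. BT5 differed in the libraries labelled phl3 by 1.18, but by 0.98 after rescaling and 0.65 with library class as a term, both short of the threshold.

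In the genotypes with both phr1 and phl1, the following members were higher in every -Pi than in every +Pi library, the opposite of Col, and the difference was not tested. For BT2 it was 4.51 in phr1phl1, 4.79 in phr1phl1phl2 and 6.13 in phr1phl1phl2phl3, and for BT1 4.35, 4.76 and 6.48. For BT3 it was 0.66 in phr1phl1 and 0.68 in phr1phl1phl2, both at levels under 2 RPKM. For BT5 it was 1.81 in phr1phl1phl2phl3, but 1.61 after rescaling and 1.23 with library class as a term. The BT5 rise itself was only 0.19 in these libraries, and it turned to -0.04 after rescaling and -0.41 with the class term.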

How the results depend on the processing

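Over 305 log2 values of BT genes, no alternative reversed the direction of a called change. The sign turned somewhere for 42 values, none of them called, 35 of which were under 0.3 in size; the largest was 0.60 (BT5 in phr1phl1 against Col on +Pi medium, 0.002 with the class term). Apart from such signs, the values and calls held for 277 with a pseudocount of 0.1, 305 with no filter, 282 after rescaling by median ratios, 289 with library class as a term, 303 in fits of the compared groups alone and 2187 of 2220 on leaving out 1 library. Rescaling moved the median of all genes by up to 0.21. Of 270 values with a test 32 changed call somewhere, with log2 sizes of 0.45 to 1.23. With the pseudocount of 0.1, BT2 in phr1phl1 -Pi against Col -Pi came to 5.93. After rescaling, the BT2 response in the triple mutant came to 0.83; the cause was not tested. The class term moved the count of called genes by over 1.5 times in 34 of 61 comparisons, from 2934 to 118 for the libraries labelled phl3 against Col on -Pi medium.

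On leaving out 1 library, the BT2 response ran from -3.85 to -3.61 in Col, -1.05 to -0.99 in phr1, 0.75 to 0.84 in phr1phl1, 0.996 to 1.19 in the triple and 2.33 to 2.57 in the quadruple. BT2 against Col -Pi ran from 2.72 to 2.86 in phr1 and 5.53 to 5.67 in phr1phl1. On +Pi medium BT2 in phr1phl1 against Col ran from 0.93 to 1.17. The Col responses of BT1, BT3, BT4 and BT5 ran from -3.46 to -3.11, -0.42 to -0.32, 1.02 to 1.22 and -1.75 to -1.55.

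Same-numbered replicates did not deviate together throughout: of 36 pairs 11 had a correlation over 0.1 (range -0.50 to 0.82). In phl4, replicates 2 and 3 had 0.770 and 0.817 and replicate 1 had -0.156. In the triple mutant, replicates 1 and 2 had 0.655 and 0.666 and replicate 3 had -0.278. With a replicate block, the BT2 response in Col stayed at -3.71 and none of the 305 values changed its call. Low depth limits BT3 most.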
